A study of Mus musculus with 8 samples.

Results

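Expression of 10 genes of MHC class I antigen presentation, including nonclassical heavy chains, was followed over 8 arrays of mouse phagocytes. The genes were Tap1, Tap2, Tapbp, B2m, Psmb8, Psmb9, Nlrc5, H2-M2, H2-M3 and Cd1d1. They were chosen by name, with earlier results of these data known. All 10 were among the 19938 genes with a probe set annotated to a single symbol. Each was read from its probe set with the highest mean log2 signal over the 8 arrays, which mattered only for Nlrc5, with 19 probe sets.

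Class I molecules show a cell's own peptides to CD8 T cells. The proteasome cuts cytosolic proteins, the Tap1 and Tap2 transporter moves the peptides into the endoplasmic reticulum, tapasin (Tapbp) helps to load them, and the heavy chain leaves for the surface together with its light chain, beta-2-microglobulin (B2m). Interferon exchanges catalytic subunits of the proteasome for inducible ones, including Psmb8 and Psmb9, and the transactivator Nlrc5 drives transcription of many genes of the pathway. H2-M2, H2-M3 and Cd1d1 encode nonclassical heavy chains. H2-M3 presents formylated peptides of bacteria, and Cd1d1 presents lipids to natural killer T cells.

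The cells were mononuclear phagocytes sorted from mice, with 1 array for each of 8 groups. All mice were C57BL/6 carrying Cx3cr1gfp/+, in which a fluorescent reporter takes the place of 1 copy of the fractalkine receptor gene. At steady state the groups were colonic CX3CR1hi resident macrophages, CX3CR1hi macrophages reconstituted from monocytes and splenic Ly6Chi monocytes, all labelled female, and CX3CR1hi F4/80hi cells, labelled male. The other groups came from males at day 4 of colitis caused by dextran sodium sulphate: splenic Ly6Chi monocytes and, from the colon, CX3CR1hi F4/80hi cells and CX3CR1int cells divided into Ly6Clo and Ly6Chi. The labels give neither the ages nor the number of mice behind an array, nor how reconstitution was done. No group has a replicate. Tests therefore compared populations: 4 CX3CR1hi, 2 CX3CR1int and 2 splenic arrays, whose members differ in state, sex, origin or Ly6C, and p-values measure only the spread between such arrays. The CX3CR1int arrays came from colitis alone.

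Array medians lay between 5.77 and 5.87 on the deposited log2 scale, which all levels here use. Macrophage markers were highest in the CX3CR1hi arrays (log2 of their summed signal 15.21 to 15.47, and 13.09 to 13.86 elsewhere), and monocyte markers in the splenic arrays (14.66 and 14.67) and the Ly6Chi colonic array (14.18). The Ly6Clo array stood apart. It had 9 of 9 conventional dendritic cell markers and 5 of 5 measured mature dendritic cell markers at or above its median, with summed levels of 13.61 and 13.80, against 11.32 to 12.08 and 8.42 to 12.63 on the other arrays. Of 4 natural killer cell markers, Klrd1 was highest there (10.70, against 8.27 in Ly6Chi cells and 5.11 to 6.39 elsewhere), whereas Nkg7, at 5.92, was below its level in Ly6Chi (6.31) and colitis splenic cells (6.07), and Ncr1 and Klrb1c were below the median on every array. Epithelial markers were high on all 6 colonic arrays (13.35 to 15.14, spleen 8.42 and 9.60), as were plasma cell markers (11.27 to 13.38, spleen 7.53 and 8.10). Pancreatic acinar markers were high in resident (11.70), colitis F4/80hi (11.11) and Ly6Chi CX3CR1int cells (11.59) and 7.40 to 8.35 elsewhere. The steady-state splenic array, labelled female, had both Xist (10.04) and the Y-linked gene Eif2s3y (10.28). Cx3cr1 itself was 7.51 and 7.95 in the CX3CR1int arrays, below both the CX3CR1hi (10.88 to 11.34) and the splenic arrays (10.76 and 9.95).

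The 10 genes varied very unequally. Between the lowest and the highest array, H2-M2 spanned 6.30 log2 units down to a level at background, Cd1d1 2.90, Psmb9 2.44, Tap1 2.01, Nlrc5 1.72, Tap2 1.44 and Psmb8 1.02. H2-M3 spanned 0.72 and Tapbp 0.60, below the median of 0.98 over the 10673 genes tested, and B2m was among the steadiest genes, with a range larger than that of only 2.91% of them. On all 8 arrays every member but H2-M2 was at or above the array median, and H2-M2 was so on 5. All 10 passed the brightness filter, H2-M2 through the arrays where it was high.

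**Figure D1:**
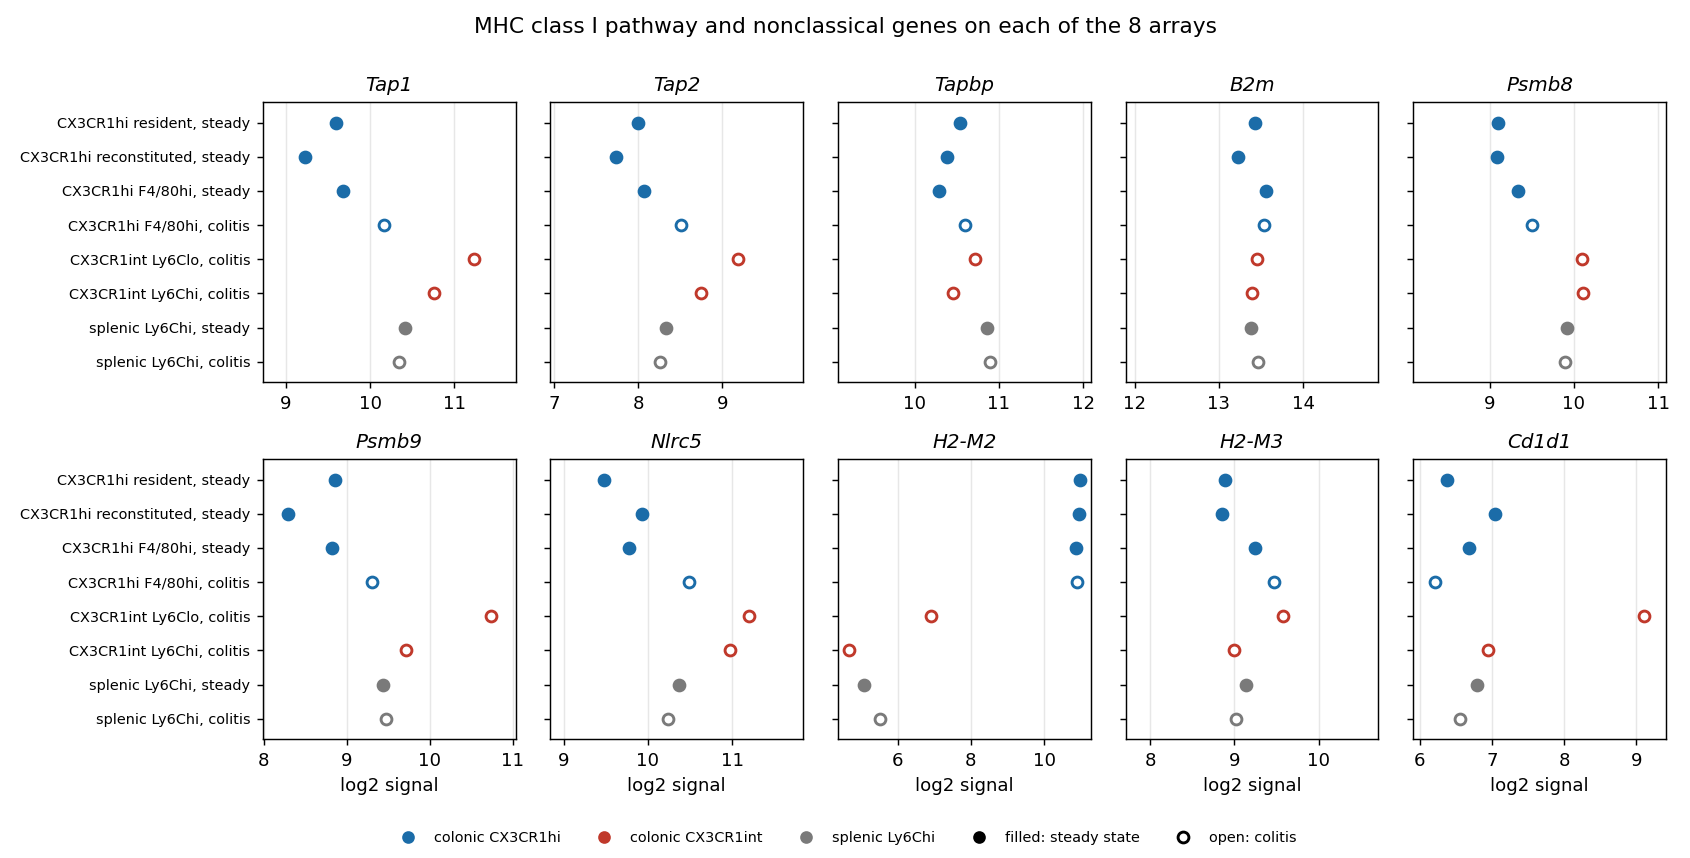
Deposited log2 signal (horizontal axis) of each of the 10 genes on each of the 8 arrays, 1 point per array, coloured by population and filled for steady state or open for colitis. Tap1, Tap2, Psmb8, Psmb9 and Nlrc5 have their 2 highest values in the CX3CR1int cells. Cd1d1 stands out in Ly6Clo cells at 9.11, and H2-M2 separates the 4 CX3CR1hi arrays from the other 4.

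Between CX3CR1int and CX3CR1hi cells, 6 of 10 members passed the test (limma, adjusted p under 0.05), beside 29.9% of all genes tested. Of these, 5 were higher in CX3CR1int cells, Tap1, Tap2, Psmb8, Psmb9 and Nlrc5 (13.3% of all genes), and 1, H2-M2, was lower (16.6% of all genes). The median difference of the members was 0.86 on the log2 scale, against 0.01 over all genes. Between CX3CR1hi and splenic cells, 4 of 10 members passed, beside 51.2% of all genes, with H2-M2 higher (22.2% of all genes) and Tap1, Tapbp and Psmb8 lower (29% of all genes). The median difference was -0.30, against -0.12 over all genes, and with quantile normalization repeated -0.17 against -0.03. In bulk samples, fewer cells of a type and less RNA per cell cannot be told apart.

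**Figure D2:**
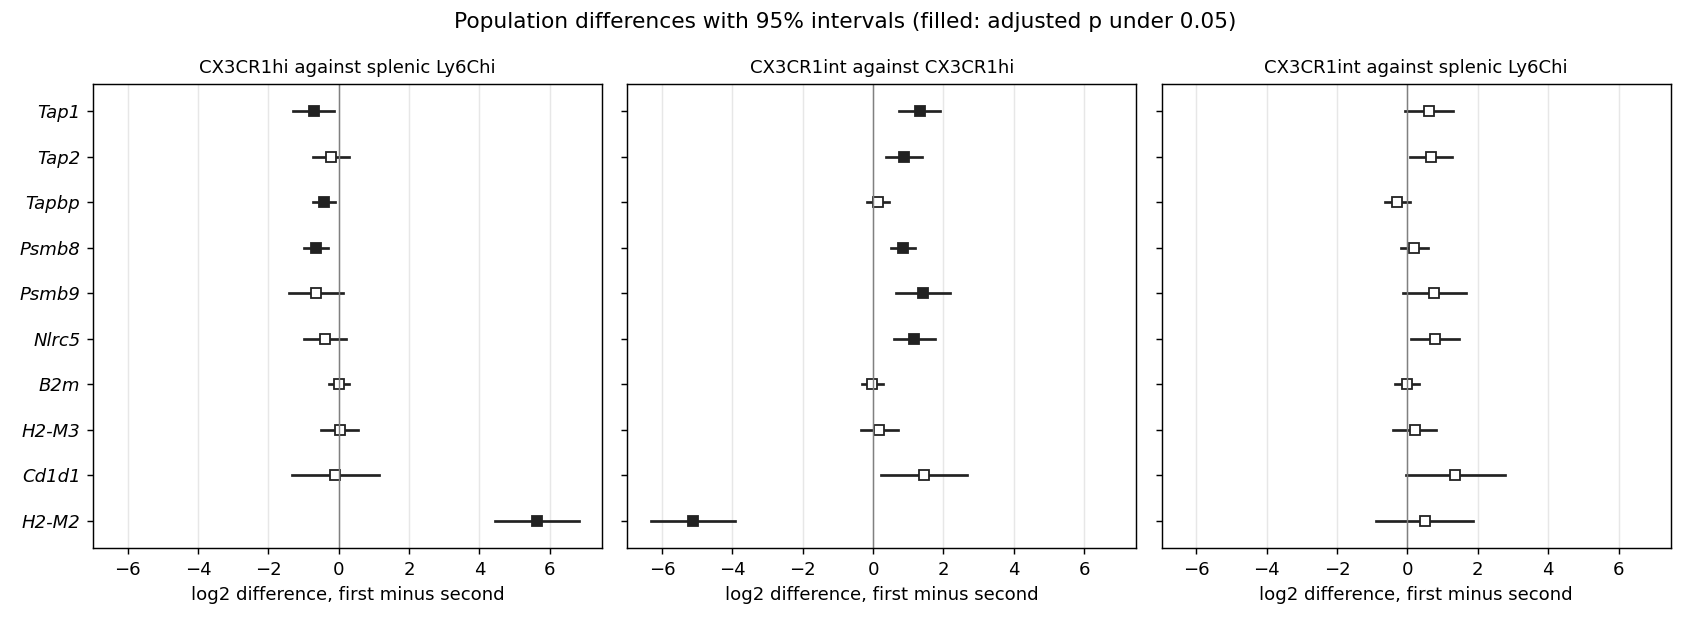
Log2 difference between populations for each gene, first population minus the second, with its 95% interval from the limma fit over 8 arrays; filled squares passed the adjusted threshold. H2-M2 is plotted as measured, at 5.63 for CX3CR1hi against splenic cells and at -5.13 for CX3CR1int against CX3CR1hi cells, although both splenic arrays and the Ly6Chi CX3CR1int array are below their medians for it, the transporter, immunoproteasome and Nlrc5 points lie right of 0 in the middle panel, and no member passed in the right panel.

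The supply of peptides begins with the proteasome. Psmb9, an inducible catalytic subunit, was 8.86 in resident, 8.29 in reconstituted, 8.82 in steady-state F4/80hi and 9.30 in colitis F4/80hi CX3CR1hi cells. It reached 10.73 in Ly6Clo and 9.72 in Ly6Chi CX3CR1int cells and was 9.44 and 9.48 in steady-state and colitis splenic monocytes. Both CX3CR1int arrays thus lay above all 6 others, and every CX3CR1hi array lay below every splenic one. How many of all genes separate the arrays without overlap was not counted, here or for Psmb8 and Tap1 below. The difference between CX3CR1int and CX3CR1hi cells was 1.41 (SE 0.33, 2.65-fold, adjusted p = 0.0175). The difference of -0.64 (SE 0.33) between CX3CR1hi and splenic cells did not pass (adjusted p = 0.139).

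Psmb8, the inducible subunit that carries the chymotrypsin-like activity, had a tighter pattern. Its CX3CR1hi levels were 9.10 in resident, 9.08 in reconstituted, 9.34 in steady-state F4/80hi and 9.51 in colitis F4/80hi cells. Both CX3CR1int arrays stood at 10.10, and the splenic arrays at 9.91 and 9.89. The 4 CX3CR1hi arrays were below the other 4 without overlap. Psmb8 was 0.84 higher in CX3CR1int than in CX3CR1hi cells (SE 0.15, 1.80-fold, adjusted p = 0.00599). It was 0.65 lower in CX3CR1hi than in splenic cells on the log2 scale (difference -0.65, SE 0.15, adjusted p = 0.00763), a call lost without either splenic array (adjusted p = 0.060 and 0.0529).

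The rest of the proteasome showed smaller differences. The counts of this and later lists stand beside the shares of all genes. In CX3CR1int against CX3CR1hi cells, 13.3% of all genes were higher and 16.6% lower. In CX3CR1hi against splenic cells, 22.2% were higher and 29% lower. In CX3CR1int against splenic cells, 1089 of the 10673 genes tested were higher and 1516 lower. Of the 6 partners of the immunoproteasome on the list (Psmb10, Psme1, Psme2, Psme3, Psme4 and Pomp), 2 were higher in CX3CR1int than in CX3CR1hi cells and none lower, with a median of 0.41. These were Psme1, a subunit of an interferon-inducible activator cap (0.66, SE 0.12), and Pomp, a chaperone of proteasome assembly (0.54, SE 0.12). Psme2, the other subunit of that cap, was 11.53 in Ly6Clo cells and 9.99 to 10.81 on the other arrays, and did not pass. Against splenic cells, 4 of the 6 were lower in CX3CR1hi cells, with Pomp at -1.05 (SE 0.12) and Psmb10, the remaining inducible catalytic subunit, at -0.71 (SE 0.17). Of the 14 subunits of the constitutive core, 3 were higher in CX3CR1int than in CX3CR1hi cells (Psma7 0.80, Psma6 0.64 and Psma4 0.60), beside 13.3% of all genes. All 14 had a positive difference there, with a median of 0.37 against 0.01 over all genes. In CX3CR1hi against splenic cells all 14 had a negative one, with a median of -0.37 against -0.12 over all genes. Of these, 5 passed, beside 29% of all genes, led by Psma7 (-1.42) and Psma4 (-0.81).

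Peptides then cross into the endoplasmic reticulum through the transporter. Tap1 was 9.60, 9.22, 9.68 and 10.16 in resident, reconstituted, steady-state F4/80hi and colitis F4/80hi CX3CR1hi cells. It was 11.23 in Ly6Clo and 10.76 in Ly6Chi CX3CR1int cells, and 10.41 and 10.34 in steady-state and colitis splenic monocytes. The 3 populations did not overlap, with CX3CR1int highest and CX3CR1hi lowest, a pattern whose share among all genes was not counted. Tap1 was 1.33 higher in CX3CR1int than in CX3CR1hi cells (SE 0.25, 2.52-fold, adjusted p = 0.00827). The difference of -0.71 between CX3CR1hi and splenic cells (SE 0.25, adjusted p = 0.0462) was just past the threshold, and it no longer passed under 8 alternatives that keep the same threshold (adjusted p 0.0699 to 0.191), among them leaving out the resident, the reconstituted, the steady-state F4/80hi or either splenic array.

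Tap2, the partner of Tap1 in the transporter, was 8.00, 7.74, 8.07 and 8.52 in the CX3CR1hi arrays in the same order. It was 9.18 in Ly6Clo and 8.74 in Ly6Chi cells, and 8.34 and 8.26 in the splenic arrays. The CX3CR1int arrays were again the highest, whereas the colitis F4/80hi array exceeded the splenic ones. Tap2 was 0.88 higher in CX3CR1int than in CX3CR1hi cells (SE 0.22, 1.84-fold, adjusted p = 0.0221). For CX3CR1hi against splenic cells its difference was -0.22 (SE 0.22, adjusted p = 0.438).

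Psmb9, Tap1, Psmb8 and Tap2 are 4 consecutive genes of the class II region of chromosome 17, with H2-DMa and H2-Ob, genes of the class II pathway, on either side among the measured genes. H2-DMa, which helps to load class II molecules, ranged only from 11.18 to 12.00 and was lowest in splenic cells. H2-Ob, a modulator of that loading, was 11.38 in Ly6Clo cells and 7.17 to 9.24 elsewhere. Psmb9 and Tap1 are transcribed in opposite directions from starts that lie 225 bases apart. That stretch is shown because both genes share it, as is the stretch before the start of Psmb8; both are from RefSeq, build GRCm38.p6, at chr17:34187331-34187555 and chr17:34197945-34198194, on the plus strand, 5′ to 3′, with capitals for motif matches.

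Between Psmb9 and Tap1: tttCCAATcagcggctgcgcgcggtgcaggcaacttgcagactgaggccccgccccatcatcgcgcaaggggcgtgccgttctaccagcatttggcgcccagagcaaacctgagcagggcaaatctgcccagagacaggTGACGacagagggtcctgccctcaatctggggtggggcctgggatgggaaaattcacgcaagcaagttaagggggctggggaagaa
Upstream of Psmb8: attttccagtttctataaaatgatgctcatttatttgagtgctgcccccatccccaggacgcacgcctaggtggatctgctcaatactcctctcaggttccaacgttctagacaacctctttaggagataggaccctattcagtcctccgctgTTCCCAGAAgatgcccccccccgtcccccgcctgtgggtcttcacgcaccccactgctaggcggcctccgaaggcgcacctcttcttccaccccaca

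RefSeq start windows of 300 bases (250 before and 50 after the start) were at hand for 7 of the 10 members: Tap1, Tapbp, B2m, Psmb8, Psmb9, H2-M2 and H2-M3. They were searched on both strands for GAAANNGAAA (an interferon-stimulated response element), TTCNNNGAA (a gamma-activated site, which reads as a match on both strands), CCAAT, the half-site TGACG of cyclic AMP response elements, and the kappaB consensus. The shared stretch of Psmb9 and Tap1 holds 1 CCAAT and 1 TGACG, which count for both genes because their windows overlap by 275 bases. Psmb8 holds a gamma-activated site 97 bases before its start, as 8.3% of all 32851 windows do somewhere, and none of the others. Only the letters searched for are described: a match is not a shown binding site, and no match says nothing about a factor.

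Tapbp, or tapasin, ties the transporter to the class I heavy chain and edits the peptides it holds. It was 10.54, 10.39, 10.29 and 10.59 in resident, reconstituted, steady-state F4/80hi and colitis F4/80hi cells. Its levels were 10.72 and 10.45 in Ly6Clo and Ly6Chi cells, and 10.86 and 10.89 in steady-state and colitis splenic cells. The splenic arrays were highest, and the CX3CR1int arrays lay among the CX3CR1hi ones or just above them. Tapbp was lower in CX3CR1hi than in splenic cells by a small margin (-0.42, SE 0.13, adjusted p = 0.0326), a call lost under 7 alternatives that keep the same threshold (adjusted p 0.0516 to 0.157), among them leaving out the reconstituted, the steady-state F4/80hi or either splenic array. Its difference between CX3CR1int and CX3CR1hi cells was 0.13 (95% interval -0.18 to 0.44).

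Of 10 further loading factors and chaperones of the endoplasmic reticulum, 2 were higher in CX3CR1int than in CX3CR1hi cells (13.3% of all genes) and none lower, with a median of 0.03. They were Tapbpl, a relative of tapasin that edits peptides outside the loading complex (0.75, SE 0.15), and Uggt1, which returns poorly folded glycoproteins to the chaperones (0.40, SE 0.13). Both were lower in CX3CR1hi than in splenic cells (-0.60 and -0.66), where 2 others were higher, the chaperones Hspa5 (1.27, SE 0.10) and Calr (0.71, SE 0.11). Erap1, which trims peptides to length in that compartment, ranged from 8.75 to 9.02 over the arrays and did not pass. Of 4 tested cytosolic peptidases that trim or destroy peptides, none passed between CX3CR1int and CX3CR1hi cells, and Lap3 was higher in CX3CR1hi than in splenic cells (1.12, SE 0.23).

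The light chain B2m differed least. It was 13.43, 13.23, 13.56 and 13.53 in resident, reconstituted, steady-state F4/80hi and colitis F4/80hi cells, 13.45 and 13.39 in Ly6Clo and Ly6Chi cells, and 13.39 and 13.47 in the splenic arrays. The 3 populations overlapped fully. Its difference was -0.02 between CX3CR1int and CX3CR1hi cells (95% interval -0.31 to 0.28, adjusted p = 0.931) and 0.01 between CX3CR1hi and splenic cells (95% interval -0.28 to 0.31, adjusted p = 0.944). At levels near the top of the scale, where the highest value of any probe set was 14.31, an array can compress a difference; this was not tested.

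The 250 bases before the start of B2m are shown because this was the only member window with an interferon-stimulated response element, which 3.44% of all windows hold (RefSeq, GRCm38.p6, chr2:122147437-122147686, plus strand). Capitals mark, from left to right, that element 139 bases before the start, a kappaB match, TGACG and CCAAT on the opposite strand.

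Upstream of B2m: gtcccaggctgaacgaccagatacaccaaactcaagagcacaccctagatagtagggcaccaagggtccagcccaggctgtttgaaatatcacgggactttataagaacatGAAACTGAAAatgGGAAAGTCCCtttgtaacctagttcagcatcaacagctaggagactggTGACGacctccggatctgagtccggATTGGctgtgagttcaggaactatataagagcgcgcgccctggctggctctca

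Heavy chains that pair with B2m could be read only in part, since of 24 listed class I heavy chain genes outside the 10 members 14 had a probe set with a single symbol, and 4 of these passed the brightness filter. H2-T24, a nonclassical heavy chain gene of the T region, was 10.72 and 10.36 in splenic arrays, 9.27 in Ly6Chi, 8.39 in Ly6Clo and 7.29 to 8.19 in CX3CR1hi cells. It was lower in CX3CR1hi than in splenic cells (-2.88, SE 0.31, adjusted p = 0.000252) and higher in CX3CR1int than in CX3CR1hi cells (1.16, SE 0.31). H2-T10, of the same region, was 0.80 higher in CX3CR1int than in CX3CR1hi cells (SE 0.17), and H2-Q2 lower (-0.71, SE 0.20). H2-Q4 was higher than in splenic cells both in CX3CR1hi (0.82, SE 0.25) and in CX3CR1int cells (1.31, SE 0.29). These genes belong to families of close relatives, so their probes may share signal.

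Nlrc5 is a nucleotide-binding protein that acts with RFX, CREB and NF-Y factors at class I promoters. It was 9.48, 9.92, 9.78 and 10.48 in resident, reconstituted, steady-state F4/80hi and colitis F4/80hi cells. It was 11.20 in Ly6Clo and 10.98 in Ly6Chi cells, and 10.36 and 10.24 in steady-state and colitis splenic cells. The CX3CR1int arrays were the 2 highest, and the colitis F4/80hi array exceeded both splenic arrays while the 3 steady-state CX3CR1hi arrays lay below them. Nlrc5 was 1.17 higher in CX3CR1int than in CX3CR1hi cells (SE 0.25, 2.26-fold, adjusted p = 0.0129). For CX3CR1hi against splenic cells the difference was -0.39 (SE 0.25, adjusted p = 0.233), and it passed only when the colitis F4/80hi array was left out (-0.57, adjusted p = 0.0288).

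The other 18 probe sets of Nlrc5 gave differences of the same sign. Over all 19, the difference between CX3CR1int and CX3CR1hi means ran from 0.87 to 1.53 with a median of 1.16, and that between CX3CR1hi and splenic means from -0.96 to -0.25 with a median of -0.54. The probe set with the highest signal therefore gave a smaller distance between CX3CR1hi and splenic cells than most others. Probe sets of a gene are read from the same RNA and are not replicates.

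**Figure D3:**
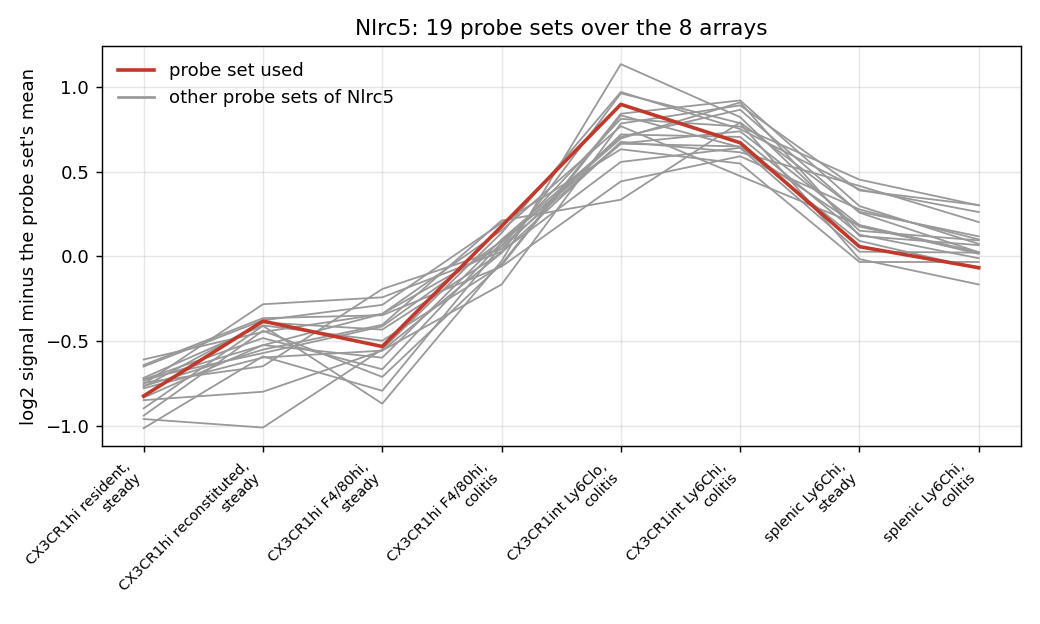
Log2 signal of each of the 19 Nlrc5 probe sets on the 8 arrays, minus that probe set's mean over the arrays (vertical axis), with the probe set used in red and the others in grey; the lines join arrays that have no order. The lowest values are those of the steady-state CX3CR1hi arrays, and all 19 differences between CX3CR1int and CX3CR1hi means lie between 0.87 and 1.53.

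Among 13 measured factors that control class I transcription, 4 were higher in CX3CR1int than in CX3CR1hi cells (13.3% of all genes) and none lower, with a median of 0.46 and 12 positive differences. Relb, an NF-kappaB subunit, was 9.19 in Ly6Clo and 8.42 in Ly6Chi cells and 7.32 to 7.77 on all other arrays (1.27, SE 0.22, adjusted p = 0.00662). Irf1, an interferon-induced activator of class I genes, was 11.62 and 11.70 against 10.10 to 11.23 in CX3CR1hi cells (0.96, SE 0.27). The NF-Y subunits Nfyb (0.78, SE 0.18) and Nfya (0.65, SE 0.16) were the others. In CX3CR1hi against splenic cells 5 were lower (29% of all genes), led by Creb1 (-0.86, SE 0.16), Irf2 (-0.75, SE 0.15) and Rfxap (-0.59, SE 0.14). There 1 was higher (22.2% of all genes), Ciita, the class II counterpart of Nlrc5 (1.26, SE 0.27).

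Ifng, the gene of interferon gamma itself, was at 4.53 to 5.13 on every array, below every array median. Of 4 tested genes of its signalling, Jak2, a kinase of the receptor, was 11.55 in Ly6Clo and 10.81 in Ly6Chi cells, against 9.12 to 9.33 in CX3CR1hi and 9.91 and 9.80 in splenic cells. It was higher in CX3CR1int than in CX3CR1hi cells (1.96, SE 0.20, adjusted p = 0.00068), as was the receptor chain Ifngr1 (0.43, SE 0.11). Of 8 tested genes induced by interferon gamma, 3 were higher, Gbp5 (1.71), Irgm1 (1.36) and Irf1, with a median of 0.43. Against splenic cells, 6 of the 8 were higher in CX3CR1int cells (Iigp1 2.97, Cxcl9 1.93 and Cxcl10 1.52 with the largest differences), and in CX3CR1hi cells 4 were higher and 1, Irgm1, lower (-1.29).

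Genes induced by type I interferon had the widest median distance between CX3CR1hi and splenic cells among these lists. Of 10, 9 were lower in CX3CR1hi cells, with a median of -1.87, led by Oas3 (-3.96, SE 0.28), Irf7 (-2.40, SE 0.24) and Usp18 (-2.38, SE 0.21). In CX3CR1int against CX3CR1hi cells 7 of 10 were higher, with a median of 1.40 and Oas3 (2.70), Mx1 (2.01) and Usp18 (2.00) in front. Between CX3CR1int and splenic cells 1 passed, Oas3, which was lower (-1.26). Type I and gamma interferons induce overlapping sets of genes, so the lists are not independent of each other.

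**Figure D4:**
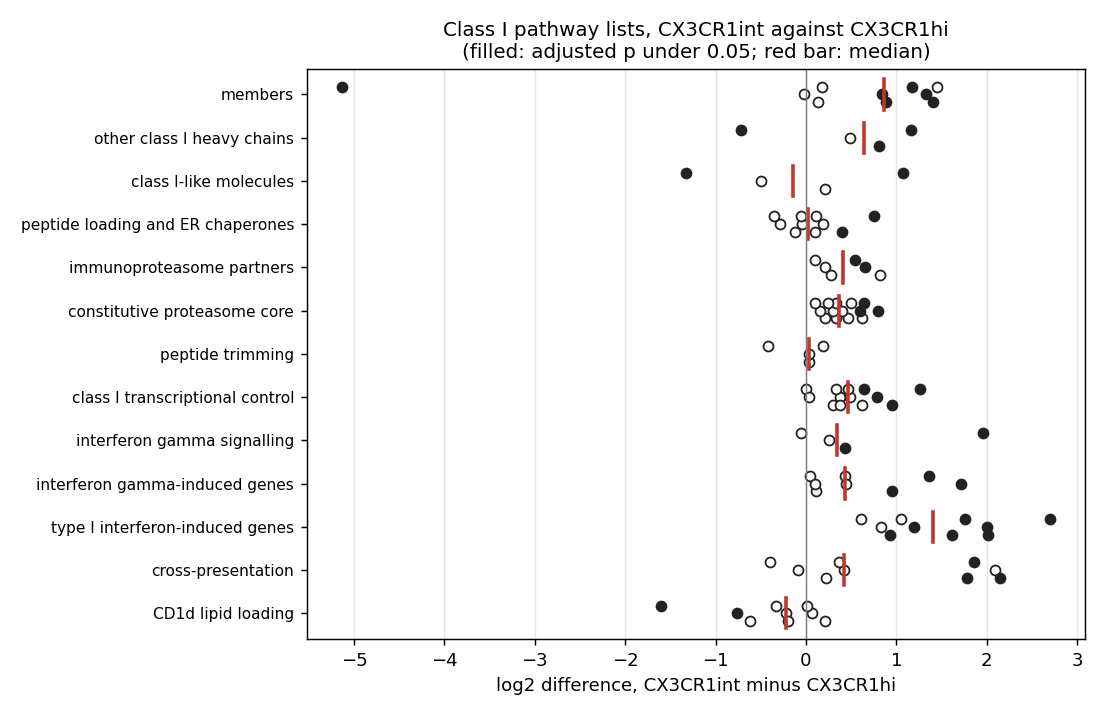
Log2 difference between CX3CR1int and CX3CR1hi cells for each tested gene of the 10 members and of the other pathway lists, 1 point per gene, filled where the adjusted p was under 0.05, with a red bar at each list's median. The medians run from -0.22 for lipid loading of CD1d to 1.40 for genes induced by type I interferon, with the members at 0.86 and the constitutive proteasome core at 0.37.

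H2-M2, a nonclassical heavy chain gene that lies among olfactory receptor genes in the M region, had the largest differences of the 10. It was 10.97 in resident, 10.95 in reconstituted, 10.88 in steady-state F4/80hi and 10.89 in colitis F4/80hi cells. Both splenic arrays were below their medians, at 5.08 and 5.51, as was the Ly6Chi array at 4.67, whereas Ly6Clo cells had 6.91. The 4 CX3CR1hi arrays, which differ in state, sex and origin, all lay between 10.88 and 10.97. Because a level below the array median is taken as background here, differences against such arrays are given as lower bounds, with the dim array set at its own median. H2-M2 was at least 35.1-fold higher in CX3CR1hi than in splenic cells (at least 5.13 on the log2 scale; measured means 10.92 and 5.30, adjusted p = 0.000115 in the limma fit). It was at least 23.2-fold higher in CX3CR1hi than in CX3CR1int cells (at least 4.53 on the log2 scale; measured means 10.92 and 5.79, adjusted p = 0.000626), where 1 of the 2 CX3CR1int arrays was above its median. The p-values use the measured levels. Between arrays of the same state, H2-M2 was the only member at least 2-fold apart in either of the following pairs. It was at least 5.19 higher on the log2 scale in resident than in steady-state splenic cells, beside 18.4% of all genes at least 2-fold higher, and at least 5.09 higher in colitis F4/80hi than in colitis splenic cells, beside 15.8%. Epithelial markers were also higher in CX3CR1hi arrays (14.56 to 15.14 summed) than in CX3CR1int (13.35 and 13.82) and splenic ones, and their part in the H2-M2 difference was not tested.

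The neighbours of H2-M2 on chromosome 17 split sharply. Olfr111, an olfactory receptor gene, was 9.86, 10.01, 9.55 and 10.22 in the CX3CR1hi arrays in the order used above, 6.90 in Ly6Clo, 5.23 in Ly6Chi and 5.48 and 5.60 in splenic cells. Olfr110, which lies between H2-M2 and Olfr111, was 6.69, 6.65, 6.29 and 7.21 in the CX3CR1hi arrays and 4.69 to 5.01 on the other 4. Olfr110 was singled out after its values were seen. The other 10 measured olfactory receptor genes in the window of 6 on each side stayed between 3.96 and 6.05 on every array. Olfr110 and Olfr111 belong to a gene family of close relatives, so their probes may share signal. Of the other measured M-region heavy chain genes, the member H2-M3 was 8.85 to 9.57, and none of the 8 outside the members exceeded 5.45 on any array.

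**Figure D5:**
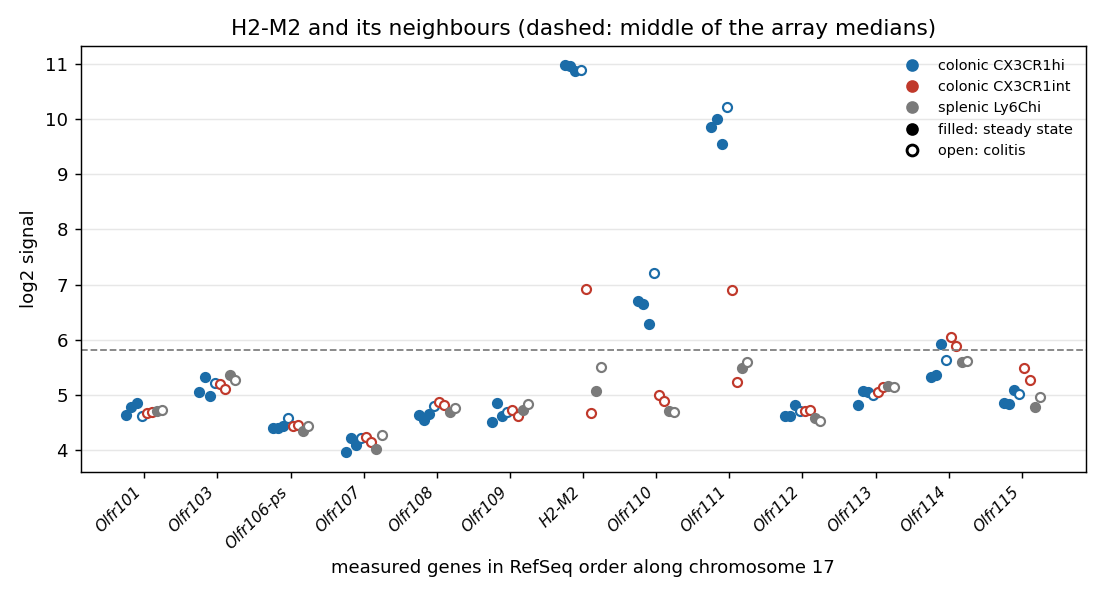
Deposited log2 signal (vertical axis) on the 8 arrays of H2-M2 and the 6 measured genes on each side of it in RefSeq order, 1 point per array, coloured by population and filled for steady state or open for colitis. H2-M2 (10.88 to 10.97), Olfr111 (9.55 to 10.22) and Olfr110 (6.29 to 7.21) are high in the CX3CR1hi arrays, and the remaining genes stay between 3.96 and 6.05.

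The 250 bases before the H2-M2 start are shown because it had the largest difference (RefSeq, GRCm38.p6, chr17:37483555-37483804, minus strand). Capitals mark, from left to right, TGACG on the opposite strand, 2 kappaB matches, at 180 and 146 bases before the start, and CCAAT. Of all windows, 8.46% hold a kappaB match, 20.8% TGACG and 37.4% CCAAT, and of the 7 member windows 3 (B2m, H2-M2 and H2-M3), 5 and 6 do.

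Upstream of H2-M2: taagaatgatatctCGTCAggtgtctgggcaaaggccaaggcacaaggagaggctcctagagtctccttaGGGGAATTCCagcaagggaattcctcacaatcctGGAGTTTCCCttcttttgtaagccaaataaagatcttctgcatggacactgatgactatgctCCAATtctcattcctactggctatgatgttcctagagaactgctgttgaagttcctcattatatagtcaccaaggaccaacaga

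H2-M3 followed neither pattern. It was 8.88, 8.85, 9.24 and 9.47 in resident, reconstituted, steady-state F4/80hi and colitis F4/80hi cells, 9.57 and 8.998 in Ly6Clo and Ly6Chi cells and 9.14 and 9.02 in splenic cells. The populations overlapped, with the male F4/80hi pair above the female pair among CX3CR1hi arrays. No population difference passed, and the estimates were 0.18 (95% interval -0.35 to 0.70) for CX3CR1int against CX3CR1hi and 0.03 (95% interval -0.50 to 0.56) for CX3CR1hi against splenic cells.

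Cd1d1 was high on 1 array. It was 6.38, 7.05, 6.69 and 6.21 in the CX3CR1hi arrays in that order, 9.11 in Ly6Clo, 6.95 in Ly6Chi, and 6.79 and 6.56 in the splenic arrays. The 7 arrays other than Ly6Clo spanned all populations between 6.21 and 7.05. The mean difference of 1.45 between CX3CR1int and CX3CR1hi cells (limma, SE 0.53, adjusted p = 0.0732) did not pass, and the CX3CR1int arrays lay far apart. Without the Ly6Chi array the difference was 2.53, which rests on the Ly6Clo array as the only one of its population. Cd1d2, a close relative next to Cd1d1, was 6.16 in Ly6Clo and 4.79 to 5.21 elsewhere. Shared sequence between the pair may add to either signal.

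Lipids for CD1d are loaded in endosomes and lysosomes. In Ly6Clo cells, where Cd1d1 was high, the 10 measured genes of that step had their lowest summed level (14.52, elsewhere 14.81 to 14.95). Not every gene was low there, as Gm2a was at its highest (12.73, elsewhere 12.32 to 12.67). The counts that follow compare populations, a test that Cd1d1 itself did not pass. Of 9 tested, none was higher in CX3CR1int than in CX3CR1hi cells and 2 were lower, the protease gene Ctsl (-1.60, SE 0.36) and Npc1, a lysosomal cholesterol transporter (-0.76, SE 0.14). Ctsl was 8.35 in Ly6Clo and 9.83 in Ly6Chi cells and 10.62 to 10.77 in CX3CR1hi cells. Of 4 tested class I-like genes, Procr, a lipid-binding receptor with a CD1-like fold, was higher in CX3CR1int than in CX3CR1hi cells (1.08, SE 0.33), with 8.32 in Ly6Clo and 6.93 in Ly6Chi cells. Mr1, which presents vitamin metabolites, was lower (-1.33, SE 0.42), with 6.02 in Ly6Clo and 7.50 in Ly6Chi cells.

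All these CX3CR1int against CX3CR1hi differences set colitis arrays against a population that is mostly at steady state. With colitis as a covariate, 1 of the 6 member calls held, H2-M2, beside 9.11% of all genes. The 5 others kept their direction but did not pass, with Tap1 at 1.06 (adjusted p = 0.0758), Psmb8 at 0.70 (adjusted p = 0.061), Nlrc5 at 0.87 (adjusted p = 0.107), Psmb9 at 1.10 (adjusted p = 0.133) and Tap2 at 0.64 (adjusted p = 0.165). Without the Ly6Clo array, which leaves 1 CX3CR1int array, the differences of Tap2 (0.66), Psmb9 (0.90) and Nlrc5 (1.06) were smaller and did not pass. Tap2 also lost its call without the resident array (0.85, adjusted p = 0.0507), and with labelled sex as a covariate Tap2 (0.75, adjusted p = 0.0687) and Psmb9 (1.24, adjusted p = 0.0565) did not pass.

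Colitis arrays alone, with 1 array each and no test, gave a closer comparison. In Ly6Chi cells the levels above colitis F4/80hi cells were 0.74 for Cd1d1, 0.60 for Tap1, 0.60 for Psmb8, 0.49 for Nlrc5, 0.41 for Psmb9 and 0.23 for Tap2. H2-M3 (-0.47), Tapbp (-0.14) and B2m (-0.14) were lower. None of these reached 2-fold, and H2-M2 was the only member at least 2-fold lower, by at least 5.02 on the log2 scale with the dim array at its median, beside 9.07% of all genes. In Ly6Clo cells, 3 members were at least 2-fold above colitis F4/80hi cells, Cd1d1 (2.90), Psmb9 (1.43) and Tap1 (1.07), beside 7.27% of all genes, and H2-M2 was lower (-3.97), beside 11.8%. Nlrc5 was 0.72, Tap2 0.67 and Psmb8 0.59 higher in Ly6Clo cells in that comparison.

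Within CX3CR1int cells, Ly6Clo exceeded Ly6Chi cells at least 2-fold for 3 members, Cd1d1 (2.16), Psmb9 (1.02) and H2-M2 (at least 1.05, since Ly6Chi cells were below the median), beside 6.46% of all genes. Psmb8, the other inducible subunit gene of the same cluster, was -0.01 apart. The Ly6Clo array was also the one with dendritic cell markers. Flt3 was 11.16 there and 9.03 in Ly6Chi cells, and Ccr7 11.66 and 9.21. Of 9 genes of cross-presentation, by which engulfed antigen reaches class I, Clec9a was 9.65 in Ly6Clo and 6.81 in Ly6Chi cells, and Wdfy4 was 11.40 and 9.69. Others of the 9 went the other way between Ly6Clo and Ly6Chi cells: Cybb (11.79 and 12.59), Rab27a (8.53 and 9.05), Sec22b (9.15 and 9.49) and Snap23 (11.91 and 12.05). Over both CX3CR1int arrays, 3 of the 9 were higher than in CX3CR1hi cells, Rab27a (2.14), Xcr1 (1.86) and Wdfy4 (1.78), with a median of 0.42. How far the dendritic cell markers and the member levels on this array share a source was not tested.

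Compared with splenic Ly6Chi monocytes, CX3CR1int cells had no member past the threshold (limma, 0 of 10), beside 24.4% of all genes. At an unadjusted p under 0.05 there were 2, Nlrc5 (0.79, SE 0.29, adjusted p = 0.0865) and Tap2 (0.67, SE 0.26, adjusted p = 0.0952), beside 39.1% of all genes. Of the members, 8 of 10 had a positive difference, with a median of 0.56 against -0.08 over all genes. Without the Ly6Chi array, Ly6Clo is the only CX3CR1int array left. The differences were then largest for Cd1d1 (2.44), Psmb9 (1.27) and H2-M2 (at least 1.12). Without the colitis F4/80hi array Nlrc5 passed (0.79, adjusted p = 0.0276), beside 22.1% of all genes. Between the single arrays of colitis, Ly6Chi cells had no member at least 2-fold from splenic cells (13.7% of all genes), and Ly6Clo cells had 3 at least 2-fold higher, Cd1d1 (2.56), Psmb9 (1.25) and H2-M2 (at least 1.12), beside 13.2%.

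Colitis itself gave no call among the members or among all 10673 genes (limma, 0 called, 0% of all genes), in a term that rests on 1 against 3 CX3CR1hi arrays and 1 against 1 splenic arrays and nearly coincides with sex. At an unadjusted p under 0.05 there were 0 members and 138 genes. The median of the members was 0.22, against 0.02 over all genes, and the largest in size were Nlrc5 (0.40, SE 0.23), Psmb9 (0.40, SE 0.33) and Cd1d1 (-0.39), followed by Tap1 (0.37, SE 0.24). Without the colitis F4/80hi array the term is only the difference between the 2 splenic arrays, so that fit is not a separate check. The differences of Nlrc5 (-0.12), Tap1 (-0.07), Tap2 (-0.08), Psmb8 (-0.02) and H2-M3 (-0.12) were then negative, as in the splenic pair below. Between the male F4/80hi arrays, which share the labelled sex, Nlrc5 was 0.71, Psmb9 0.48, Tap1 0.48 and Tap2 0.45 higher in colitis, while B2m (-0.02) and H2-M2 (0.01) were level and Cd1d1 was lower (-0.48). No member was 2-fold apart there (1.47% of all genes were). All 19 Nlrc5 probe sets were higher in colitis in that pair, by 0.24 to 0.86. Markers of other cell types were also higher on the colitis array of the pair, with summed levels of 11.75 against 10.43 for stroma, 11.11 against 7.78 for pancreatic acinar cells and 12.80 against 12.26 for plasma cells, and their part in these differences was not tested.

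In splenic monocytes the same genes had differences near 0 in colitis. Nlrc5 was -0.12, Tap1 -0.07, Tap2 -0.08, Psmb8 -0.02 and Psmb9 0.04 against the steady-state array, and 18 of 19 Nlrc5 probe sets were lower. No member was 2-fold apart, beside 0.708% of all genes. A fit added after the values were seen estimated colitis in each population and tested the difference of both estimates. For Nlrc5 that difference was 0.88 (SE 0.38, adjusted p = 1), and 0 members and 0% of all genes passed (0 members and 129 genes at an unadjusted p under 0.05). So no member's response was shown to differ between colon and spleen.

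Resident and reconstituted macrophages, both labelled female and at steady state, differed by less than 2-fold for all 10 members, beside 1.76% of all genes. Cd1d1 was 0.67 and Nlrc5 0.44 higher in the reconstituted cells, and Psmb9 0.56, Tap1 0.38 and Tap2 0.26 higher in the resident ones, so Nlrc5 and the transporter genes differed in opposite directions between these arrays. F4/80hi cells at steady state, male, were also within 2-fold of the resident cells for every member (3.64% of all genes were 2-fold apart), with H2-M3 at 0.36 and Cd1d1 at 0.31 above them and Tapbp at -0.25.

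Similarity of pattern was described over the 8 arrays, which form 3 populations, so that any gene separating these populations scores high. Among 5003 tested genes with a range of at least 1, those most like Tap1 were Etnk1 (r = 0.99), Dnajc8 (0.98) and Psmb9 (0.98), and those most like Psmb8 were Apaf1 (0.99), Stat2 (0.98) and Gng10 (0.98). Most like Psmb9 were Casp8ap2 (0.99), Cnot6 (0.98) and Tap1 (0.98). Tap2 was nearest to Mysm1 (0.97), Casp8ap2 (0.97) and Psmb9 (0.96), and Nlrc5 to Dennd4b (0.95), Snx20 (0.94) and Nup54 (0.94). H2-M2 was nearest to its neighbour Olfr111 (r = 0.996), Loxl3 (0.99) and Pald1 (0.99), and Cd1d1 to Mtmr4 (0.97), Prps1 (0.96) and H2-Eb2 (0.96). H2-Eb2, a class II gene, was 9.76 in Ly6Clo and 5.14 to 6.38 elsewhere. Tapbp was nearest to Gbe1 (0.97), whereas B2m, which varied least, had no neighbour above Tmbim4 (0.76) and H2-M3 none above Cacybp (0.87).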

How the data were processed

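Levels were the authors' deposited log2 values of 35399 Affymetrix probe sets on 8 arrays, made with RMA (background correction, quantile normalization and summary of probes) and Partek per the submitters' processing notes. Their settings and the genome build are not given in the sources used here. Probe sets with 1 symbol in the platform annotation (21789; 1621 had several and 11989 were not listed) gave 19938 genes, and the probe set with the highest mean stood for a gene. Entrez identifiers of 21698 probe sets matched RefSeq. Populations were compared with limma 3.58.1 (R 4.3.3; lmFit and eBayes, 5 residual degrees of freedom) on the 10673 genes that reached the median of 2 or more arrays, with Benjamini-Hochberg adjustment over these genes at 0.05. Colitis was an added term (4 residual degrees of freedom). Single arrays were compared without a test, at a log2 difference of at least 1. Lower bounds for H2-M2, added after its values were seen, set arrays below their median at that median. Fits were tested on simulated data. Besides the members, up to 3 genes per direction of each list with the largest passing difference were named. So were the 3 genes most like each member, but only the first for Tapbp, B2m and H2-M3. Others named were chosen after their values were seen. The members and lists were chosen with earlier results of these data known. The number of arrays limits the precision. Other steps used Python 3.11.15, numpy 2.4.6, pandas 2.3.3 and matplotlib 3.10.9.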

Additional observations from a re-analysis of the deposited data

How the results depend on the processing

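No member difference past the threshold changed sign under the alternatives run. Differences that had not passed did so in several, B2m in each population comparison, H2-M3, Cd1d1 and, for colitis, 5 members without the colitis F4/80hi array. In that last fit the colitis term is only the difference between the 2 splenic arrays. Without the Ly6Clo array, CX3CR1int minus CX3CR1hi was -0.11 for H2-M3 (0.18 with it) and -0.0029 for Tapbp (0.13), and CX3CR1int minus splenic was -0.63 for H2-M2 (0.50). Members called for CX3CR1hi against splenic cells (4) became 2 with repeated quantile normalization, 2 with colitis as a covariate, 1 with a 2-fold minimum, and 1 to 5 on leaving out each array; without either splenic array it was 1, H2-M2. Of all genes, 5466 were called there, 3505 with a 75th percentile filter, 2589 with the 2-fold minimum and 3246 (without the steady-state splenic array) to 6400 on leaving out arrays. For CX3CR1int against CX3CR1hi cells (6 members, 3186 genes), colitis as a covariate left 1 member and 972 genes, sex as a covariate 1992 genes and the 2-fold minimum 1480, and leaving out arrays gave 3 to 7 members. For CX3CR1int against splenic cells (0 members, 2605 genes), leaving out arrays gave 0 to 3 members and 735 to 3763 genes, colitis as a covariate 1643 genes, the 2 populations alone 947 and the 2-fold minimum 1338. Among single arrays, repeated quantile normalization gave 6 members at least 2-fold apart between Ly6Clo and colitis splenic cells (3 as deposited), beside 22.1% of all genes (22.5%). With reconstituted in place of resident cells, Tap1 (-1.19) and Psmb9 (-1.15) joined H2-M2 at least 2-fold from steady-state splenic cells. Colitis F4/80hi cells had no member 2-fold from steady-state F4/80hi cells. They just reached 2-fold for Nlrc5 against resident cells (1.0007) and for Psmb9 against reconstituted cells (1.0095). The share of all genes was not computed for these alternative pairs. Causes were not tested. Without one splenic or CX3CR1int array, the lone array left is assumed to vary like the other populations. The lowest and highest member counts for CX3CR1int against CX3CR1hi cells come from fits with a lone CX3CR1int array. Leaving out any one CX3CR1hi array gave 5 or 6 members there, beside 2434 to 2884 genes (22.8% to 27.0% of all genes). No paired analysis was possible because each group has 1 array. Levels near 5 are background, so the folds of H2-M2 depend on that floor.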

Other observations

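Class II genes beside the members also varied. H2-Oa, which with H2-Ob forms a modulator of class II peptide loading, was 9.79 in Ly6Clo cells and between 5.04 and 6.66 on the other 7 arrays. The class II chains H2-Ab1 and H2-Eb1 were 13.10 and 13.05 in Ly6Clo cells, close to the CX3CR1hi arrays (13.14 to 13.23 and 13.06 to 13.16), and 12.55 and 12.26 in Ly6Chi cells. Near Cd1d1, Fcrls, an Fc receptor-like gene, was 9.70 to 10.84 in CX3CR1hi cells and 3.79 to 5.57 elsewhere. These genes were named after their values were seen and were not tested here.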
